A study of Mus musculus with 48 samples.

Results

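The insulin-like growth factor (IGF) genes of the mouse aorta were examined: the ligands Igf1 and Igf2, the receptor Igf1r and the binding proteins Igfbp2, Igfbp3, Igfbp4, Igfbp5, Igfbp6 and Igfbp7. These 9 genes were chosen by name, and their rows were taken from a table of 18782 genes. All 9 were among the 14431 genes that passed a filter on low counts. The table came from RNA of the thoracic aorta of 48 C57BL/6J wild-type mice, with 1 library per mouse, and it held expected counts per gene. Control mice, 10 females (FeCon) and 10 males (MaCon), had normal drinking water for 28 days, also starting at 3 weeks of age. The other mice drank water with 0.4% β-aminopropionitrile (BAPN), which blocks lysyl oxidase and so the cross-linking of matrix fibres, for 28 days, starting at 3 weeks of age. Treated mice without a detectable aortic lesion formed FeNonAD (8 females) and MaNonAD (4 males), and treated mice with aortic dissection or aneurysm formed FeAAD (9 females) and MaAAD (7 males). The comparisons ask how the aortas of the 2 sexes differed without treatment and how they differed from these controls with and without a lesion. NonAD and AAD were set by outcome among mice that lived to the endpoint, mice that died of rupture gave no library, and per the study's methods RNA came from the lesioned segments. Control and treated mice were kept in separate cages, as were males and females. Per the study's methods each group was spread over multiple cages, but the cage of each library is not given. Neither treatment nor sex can therefore be told apart from cage here.

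The IGF system joins secreted ligands to cell growth and survival. Igf1 and Igf2 proteins activate Igf1r, a receptor tyrosine kinase that signals through insulin receptor substrates, PI3K and AKT, while binding proteins hold the ligands in blood and tissue, and proteases release them by cleaving the binding proteins. In the vessel wall, smooth muscle cells, fibroblasts and macrophages are known sources of ligands and binding proteins.

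In females, 3 of the 9 genes changed between FeNonAD and FeCon, where 14.5% of all tested genes passed the same test (6.87% rose and 7.66% fell). Igfbp2 rose, and Igf1r and Igfbp6 fell. Between FeAAD and FeCon, 6 of the 9 changed, where 44.4% of all genes passed (23.8% rose and 20.6% fell). Igfbp2 and Igf1 rose, and Igf1r, Igf2, Igfbp6 and Igfbp5 fell. In males, none of the 9 passed between MaNonAD and MaCon by edgeR, where 0.624% of all genes passed. At an unadjusted p under 0.05, 1 of the 9 (Igfbp2) passed in that comparison, against 12% of all genes, and the count by DESeq2 was also 0, against 1.1%. Between MaAAD and MaCon, 4 of the 9 changed, where 35% of all genes passed (18.9% rose and 16.1% fell). Igfbp2, Igfbp3 and Igf1 rose and Igf2 fell. Under the study's stricter rule, which also asks for a change of 1 or more on the log2 scale in either direction, 1 of the 9 passed in FeNonAD against 2.75% of all genes, 2 in FeAAD against 12.7% and 3 in MaAAD against 11.4%. Adjusted p-values come from edgeR, fitted to the 48 libraries by quasi-likelihood, after Benjamini-Hochberg adjustment over the 14431 genes. Log2 fold changes are given ± their standard error (SE), and a gene passed at an adjusted p under 0.05.

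**Figure D1:**
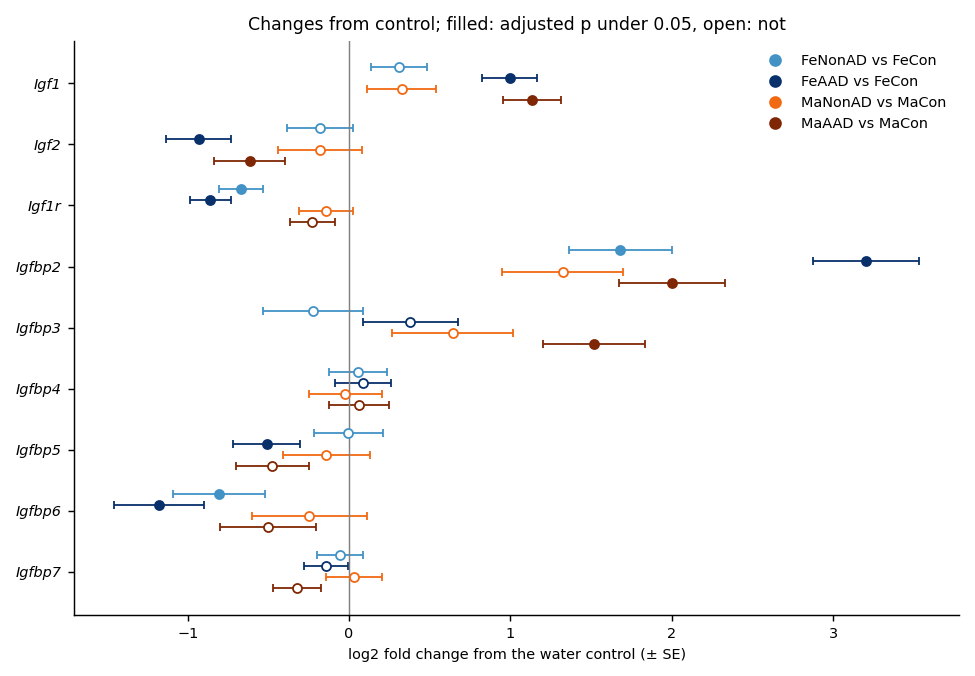
Log2 fold changes of the 9 genes (points, with bars for ± SE) from the control of the same sex in FeNonAD, FeAAD, MaNonAD and MaAAD mice. Filled points passed at an adjusted p under 0.05 and open points did not. The 4 Igfbp2 points lie between 1.32 and 3.20, each to the right of the other genes in its own comparison, and the 4 Igfbp4 points lie near 0.

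Levels are in CPM, that is counts scaled to library size with TMM factors. The library totals ranged from 13548003 to 17281262 counts. Each of the 9 genes had counts in all 48 libraries, with the lowest count being 68 (Igf2 in FeAAD). Markers of other cell types moved with the lesion. The 7 macrophage markers all rose between AAD and Con in both sexes, with their summed level at 198 to 468 CPM in FeCon and 486 to 4892 in FeAAD, and at 166 to 439 in MaCon and 653 to 3041 in MaAAD. The 6 smooth muscle markers all fell in both, from 30042 to 51829 CPM in FeCon to 13829 to 31672 in FeAAD, and from 27510 to 59714 in MaCon to 11730 to 29183 in MaAAD. Neutrophil markers rose (5 of 5 in FeAAD, with their sum at 5.88 to 881 CPM against 1.13 to 5.76 in FeCon, and 4 of 5 in MaAAD), as did markers of cycling cells (4 of 4 in FeNonAD, FeAAD and MaAAD). Of 4 B cell markers 4 rose in FeAAD, 2 in MaAAD, 3 in MaNonAD and 1 in FeNonAD. In FeAAD 4 of 6 heart muscle and 3 of 4 mesothelium markers fell, against 1 and 0 in MaAAD. The summed fibroblast markers were at 7262 to 14201 CPM in FeAAD against 5025 to 7501 in FeCon, and at 7287 to 14432 in MaAAD against 5253 to 7072 in MaCon, with 2 of 6 risen and 1 fallen in FeAAD and 3 risen in MaAAD. Of 5 endothelium markers 2 rose in each AAD group and 1 fell in FeAAD, and in each of the fat, T cell, skeletal muscle and Schwann cell lists at most 1 marker passed in either. In FeNonAD 1 marker each of smooth muscle, endothelium and mesothelium fell and 1 fibroblast marker rose, with the median smooth muscle sum at 31196 CPM against 42904 in FeCon. Between the controls, 2 of 5 T cell markers were higher in MaCon. Their sum was 110 CPM in MaCon2 and at most 13.8 in FeCon, with medians of 7.11 in MaCon and 4.11 in FeCon. Within FeAAD, FeAAD5 and FeAAD9 stood apart, with neutrophil sums of 881 and 200 CPM against at most 25.9 in the other 7 libraries, the highest cycling sums (360 and 255) and the lowest endothelium sums (327 and 257), and FeAAD5 also had the highest macrophage sum. Without both, 5 of the 9 genes passed between FeAAD and FeCon (all but Igfbp5 of the 6 above), against 37.5% of all genes. In males MaAAD7 stood apart, with a neutrophil sum of 237 CPM against at most 54.8 in the other MaAAD libraries. It had the highest macrophage sum (3041) and the lowest endothelium sum (461) of MaAAD. MaAAD7 was also the lowest MaAAD library for Igf2 and the highest for Igfbp2. No marker of any list was at 0 throughout a group. The part of these markers in any result below was not tested, and in whole tissue fewer cells of a type and less RNA per cell cannot be told apart.

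Per length of the longest transcript, over all 48 libraries, Igfbp7 had the highest mean level of the 9 genes, at 2475 CPM per kb. Igfbp4 followed at 225 CPM per kb, then Igfbp2 at 122, Igfbp5 at 121 and Igfbp6 at 58.6. The ligand Igf1 stood at 13.4 CPM per kb, Igfbp3 at 11.8, the receptor Igf1r at 9.87 and Igf2 at 3.65. Igfbp7 did not overlap in range over libraries with any other gene. Within groups, Igfbp6 lay apart from Igf1 in 5 of the 6 groups (all but FeAAD) and Igf1r from Igf2 in 5 (all but FeNonAD), and Igfbp4 lay apart from Igfbp2 in 4 and overlapped in both AAD groups. Igfbp2 and Igfbp5 overlapped in 5 groups, Igfbp5 and Igfbp6 in 5, and Igf1 and Igfbp3, like Igfbp3 and Igf1r, in all 6, so these neighbours are not ordered beyond their spread there. The place of Igfbp2 moved between groups, from 5th per length in FeCon and MaCon to 2nd in FeAAD and 3rd in MaAAD. With coding length in place of transcript length 3 of the 9 genes kept their place, and Igf1, whose longest transcript is mostly untranslated, moved from 6th to 4th.

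**Figure D2:**
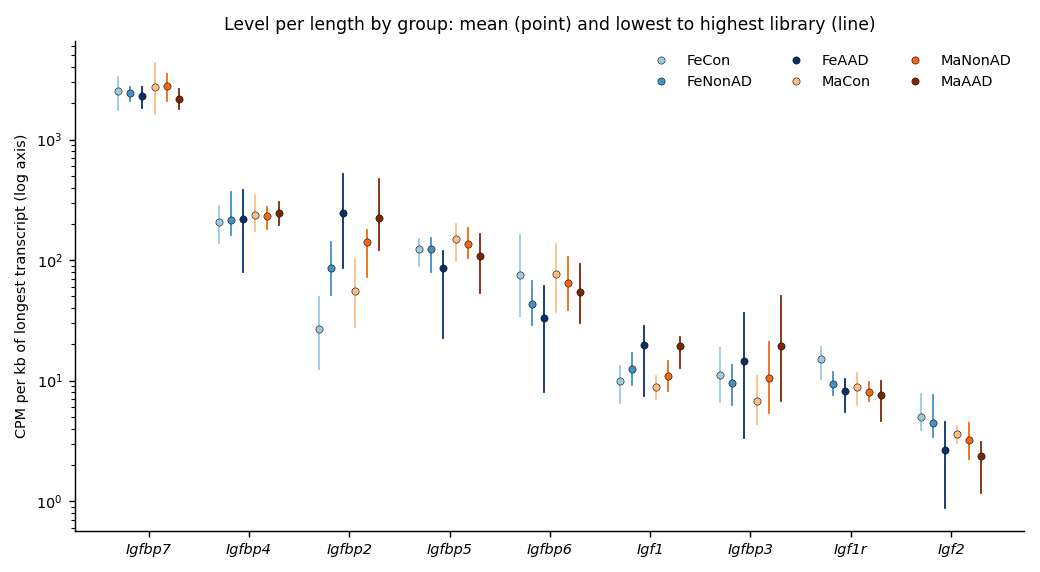
Level of each gene per kb of its longest transcript (log axis, CPM per kb) in the 6 groups, with points for group means and lines from the lowest to the highest library. Igfbp7 sits alone at the top, and the Igfbp2 points rise from FeCon (26.6) and MaCon to FeAAD and MaAAD.

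Igf1, the ligand that activates Igf1r, was higher in the AAD libraries of both sexes. In FeCon its level was 45.9 CPM at the lowest, 72.3 at the median and 93.6 at the highest, and in FeNonAD 65.1, 88.3 and 120. In FeAAD the lowest was 52.9 (FeAAD9), the median 154 and the highest 201. In MaCon the 3 values were 49.9, 62.6 and 77.5, the 4 MaNonAD libraries were at 57.7, 62.7, 88.3 and 102, and in MaAAD the values were 89.0, 146 and 162. All 7 MaAAD libraries lay above all 10 MaCon libraries, and 7 of the 9 FeAAD libraries lay above all FeCon libraries. The mean level rose from 70.5 ± 17.1 CPM (SD, n = 10) in FeCon to 140 ± 52.2 (n = 9) in FeAAD, a log2 fold change of 0.99 ± 0.17 (adjusted p = 5.89e-06). In males it rose from 62.0 ± 7.75 CPM (n = 10) to 136 ± 26.0 (n = 7), a log2 fold change of 1.13 ± 0.18 (adjusted p = 2.3e-06). Between FeAAD and FeNonAD it rose by 0.68 ± 0.18 (adjusted p = 0.00568), which did not pass with only the groups compared in the fit (adjusted p = 0.0611). Between MaAAD and MaNonAD the difference of 0.81 ± 0.24 (adjusted p = 0.0591) did not pass, while it did without MaNonAD1, MaAAD1 or MaAAD2 in turn (adjusted p = 0.0346, 0.0382 and 0.0349). In FeNonAD against FeCon it was 0.31 ± 0.17 (adjusted p = 0.232) and in MaNonAD against MaCon 0.33 ± 0.21 (adjusted p = 0.587). FeAAD9, the lowest FeAAD library for Igf1, was also the lowest for Igf2, Igfbp4, Igfbp5 and Igfbp6.

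Igf1 and Igfbp2 were the genes that rose in AAD in both sexes, so their first listed promoters are shown. They are RefSeq windows of mouse build GRCm38.p6, 250 bases before to 50 after the start, on the plus strand, and all 9 genes matched a window by symbol. Capitals mark matches to 4 motifs searched on both strands. The GC box was searched as GGGCGG, and the canonical E box as CACGTG. The CCAAT box was searched by the letters of its name, which read ATTGG where it lies on the minus strand. The TATA box was searched as TATAAA, and no matches overlapped. The build of the authors' counts is GRCm39, so the positions are only those of this window.
Igf1 chr10:87860861-87861160: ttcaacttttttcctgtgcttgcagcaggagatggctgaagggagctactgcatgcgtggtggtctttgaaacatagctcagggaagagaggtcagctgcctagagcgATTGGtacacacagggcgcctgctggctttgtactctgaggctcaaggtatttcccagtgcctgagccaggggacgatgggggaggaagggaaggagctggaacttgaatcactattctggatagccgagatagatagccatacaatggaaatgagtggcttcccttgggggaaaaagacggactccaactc
Igfbp2 chr1:72824230-72824529: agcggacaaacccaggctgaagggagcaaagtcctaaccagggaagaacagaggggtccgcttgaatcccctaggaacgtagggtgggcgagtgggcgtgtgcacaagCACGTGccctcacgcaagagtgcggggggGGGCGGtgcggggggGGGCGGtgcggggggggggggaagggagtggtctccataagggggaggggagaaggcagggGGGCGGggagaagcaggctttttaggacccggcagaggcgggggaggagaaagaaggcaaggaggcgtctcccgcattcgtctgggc
The Igf1 window held 1 CCAAT box and was 52.3% G or C, against a median of 52.7% over 32851 promoters. The Igfbp2 window held 3 GC boxes and 1 E box and was 67% G or C. Over all promoters, 35.7% held a GC box, 7.15% the E box, 37.4% a CCAAT box and 13.6% a TATA box. A match is a description of the letters and not a site in use.

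Igf2, the ligand most active in fetal growth, was lower in both AAD groups. Its level was 18.3 CPM at the lowest, 22.7 at the median and 36.7 at the highest in FeCon, 16.2, 18.4 and 36.1 in FeNonAD, and 4.11 (FeAAD9), 13.2 and 21.3 in FeAAD. FeAAD5, at 4.61, lay beside FeAAD9, and the next FeAAD library was at 9.41. In MaCon the values were 14.3, 17.4 and 20.0, in MaNonAD the libraries were at 10.7, 13.1, 15.3 and 21.2, and in MaAAD the values were 5.48, 12.4 and 14.6. All groups overlapped, with 8 of 9 FeAAD libraries below every FeCon library and 6 of 7 MaAAD libraries below every MaCon library. Igf2 fell by 0.93 on the log2 scale ± 0.20 (adjusted p = 0.000205) between FeAAD and FeCon, with a change of -0.68 without FeAAD5 and FeAAD9 (adjusted p = 0.00149), and by 0.62 ± 0.22 (adjusted p = 0.0247) between MaAAD and MaCon. The male call was lost without MaAAD3, MaAAD7, MaCon3 or MaCon9 in turn (adjusted p = 0.0706, 0.0831, 0.0546 and 0.0524). Between FeAAD and FeNonAD it fell by 0.75 ± 0.21 (adjusted p = 0.00973), which did not pass with only the groups compared in the fit (adjusted p = 0.0949) or without FeAAD5 and FeAAD9 (-0.50, adjusted p = 0.0731).

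Igf1r, the receptor of both ligands, had its highest mean in FeCon. Its level in FeCon was 118 CPM at the lowest, 183 at the median and 217 at the highest. In FeNonAD the values were 87.1, 108 and 135, and in FeAAD 62.9, 94.3 and 118. In MaCon they were 72.2, 96.2 and 132, the MaNonAD libraries were at 77.2, 78.3, 99.2 and 111, and in MaAAD the values were 52.4, 91 and 114. The 3 lowest FeCon libraries, FeCon3, FeCon2 and FeCon7, were at 118, 121 and 144 CPM. Below the lowest FeCon library lay 6 of 8 FeNonAD, 8 of 9 FeAAD and 8 of 10 MaCon libraries. The receptor fell by 0.67 on the log2 scale ± 0.13 (adjusted p = 0.000638) between FeNonAD and FeCon and by 0.86 ± 0.13 (adjusted p = 6.37e-07) between FeAAD and FeCon. In MaCon it was lower than in FeCon by a log2 fold change of -0.76 ± 0.13 (adjusted p = 5.94e-05). In males the changes were -0.14 ± 0.17 (adjusted p = 0.807) in MaNonAD and -0.23 ± 0.14 (adjusted p = 0.2) in MaAAD, and they did not pass. Of 8 clock genes, 2 fell and none rose between MaCon and FeCon, and their summed level was 730 to 2018 CPM (median 1446) in FeCon and 339 to 1241 (median 769) in MaCon. It was 371 to 1351 CPM (median 1171) in FeNonAD and 223 to 1095 (median 767) in FeAAD, where none and 1 of the 8 fell. The part of the clock genes in the Igf1r differences was not tested.

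**Figure D3:**
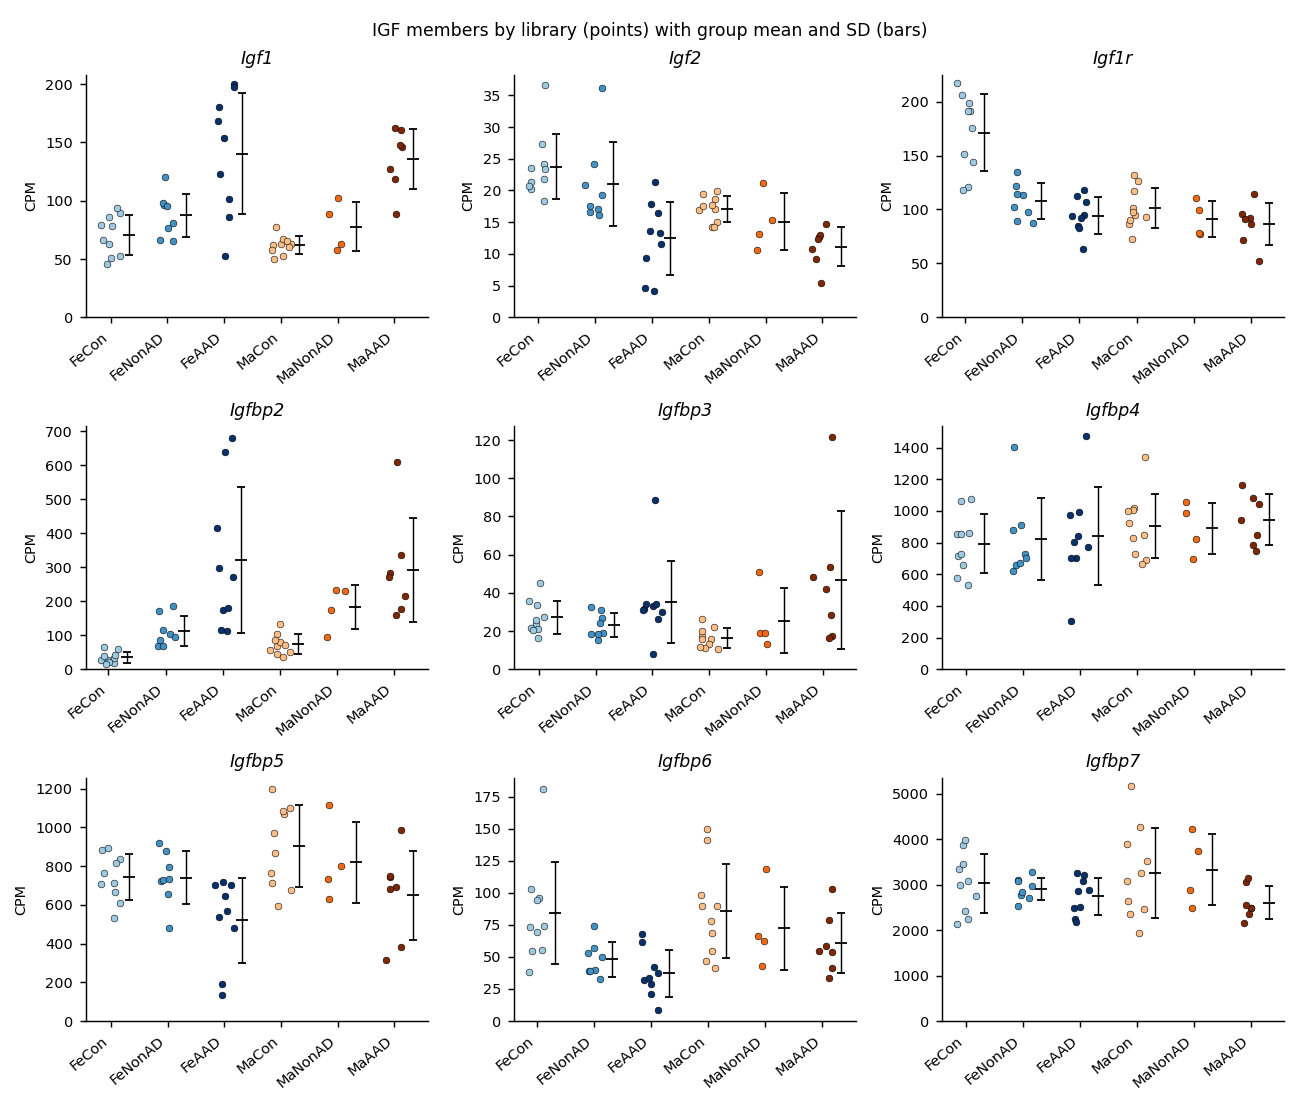
CPM of each gene in each library (points, colour by group) with the group mean and SD (bars) on linear axes from 0. Igfbp2 lies at 16.3 to 64.5 in FeCon and 112 to 681 in FeAAD, Igf1r stands highest in FeCon, and Igfbp4 and Igfbp7 overlap across the 6 groups.

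Igfbp2, a binding protein that holds IGFs and also binds integrins through a short motif, changed more than any other of the 9 genes in each comparison with the controls of FeNonAD, FeAAD and MaAAD. In FeCon the values were 16.3 CPM at the lowest, 31.0 at the median and 64.5 at the highest, in FeNonAD 67.5, 98.8 and 186, and in FeAAD 112, 271 and 681. In MaCon they were 36.5, 70.1 and 134, the MaNonAD libraries were at 95.0, 173, 231 and 233, and in MaAAD the values were 158, 272 and 610. No FeNonAD or FeAAD library overlapped with FeCon, and no MaAAD library overlapped with MaCon. Of the MaNonAD libraries, 3 of 4 lay above all MaCon libraries. The mean rose from 34.8 ± 16.5 CPM (SD, n = 10) in FeCon to 112 ± 44.3 (n = 8) in FeNonAD and 321 ± 215 (n = 9) in FeAAD. The log2 fold changes from FeCon were 1.68 ± 0.32 (adjusted p = 0.000387) in FeNonAD and 3.20 ± 0.33 (adjusted p = 4.17e-10) in FeAAD, or 9.21-fold. In males the mean rose from 73.2 ± 29.5 CPM (n = 10) in MaCon to 293 ± 153 (n = 7) in MaAAD, a log2 fold change of 2.00 ± 0.33 (adjusted p = 4.47e-06). In MaNonAD the mean of 183 ± 65.0 CPM (n = 4) gave a log2 fold change of 1.32 ± 0.38 with an adjusted p = 0.0923 and an unadjusted p = 0.001. This passed with only the groups compared in the fit (adjusted p = 0.031) and without MaCon5, the highest MaCon library (adjusted p = 0.0379). Igfbp2 rose further between FeAAD and FeNonAD, by 1.52 ± 0.34 (adjusted p = 0.000991), and in males the step of 0.68 ± 0.43 (adjusted p = 0.408) did not pass. Igfbp2 was higher in MaCon than in FeCon by 1.07 ± 0.31 (adjusted p = 0.0149). Igfbp2 and Igfbp5 are neighbouring coding genes on chromosome 1, and Igfbp5 did not rise in any group.

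Igfbp3, the main carrier of IGFs in blood, rose in MaAAD. Its level was 16.3 CPM at the lowest, 24.5 at the median and 45.4 at the highest in FeCon, and 8.17, 31.6 and 88.8 in FeAAD. In MaCon the values were 10.5, 15.7 and 26.3, the MaNonAD libraries were at 13.0, 18.8, 19.1 and 50.9, and in MaAAD the values were 16.4, 42.2 and 122. Of the MaAAD libraries, 5 of 7 lay above all MaCon libraries and MaAAD1 stood at 122 CPM. The log2 fold change in MaAAD was 1.52 ± 0.32 (adjusted p = 0.000166). In FeAAD it was 0.38 ± 0.30 (adjusted p = 0.311), and in MaNonAD 0.64 ± 0.38 (adjusted p = 0.526), or 0.06 without MaNonAD1, the library at 50.9 CPM. FeAAD6 was the highest FeAAD library, at 88.8 CPM, with the next at 34.3.

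Igfbp4 and Igfbp7 did not pass in any comparison. Igfbp4, which restrains IGF action until it is cleaved by the protease Pappa, averaged 792 ± 185 CPM (SD, n = 10) in FeCon and 945 ± 160 (n = 7) in MaAAD. Its log2 fold changes from control were 0.05, 0.09, -0.02 and 0.06 in FeNonAD, FeAAD, MaNonAD and MaAAD. FeNonAD8 stood at 1407 CPM and FeAAD9 at 305, apart from their groups. Igfbp7, a secreted protein of the IGFBP family with low affinity for IGFs, averaged 3031 ± 651 CPM (n = 10) in FeCon and 2609 ± 368 (n = 7) in MaAAD. The MaAAD change of -0.32 ± 0.15 (adjusted p = 0.0818) did not pass, and it passed without MaCon1 or MaCon2 in turn (adjusted p = 0.0486 and 0.0293).

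Igfbp5, a binding protein that attaches to extracellular matrix, averaged 741 ± 119 CPM (SD, n = 10) in FeCon, 520 ± 219 (n = 9) in FeAAD, 904 ± 210 (n = 10) in MaCon and 650 ± 230 (n = 7) in MaAAD. The 2 lowest FeAAD libraries, FeAAD9 and FeAAD5, stood at 135 and 189 CPM, and the next at 479. Igfbp5 fell by 0.51 on the log2 scale ± 0.21 (adjusted p = 0.044) between FeAAD and FeCon. Without FeAAD9 or FeAAD5 the fold change was -0.38 (adjusted p = 0.0942) and -0.40 (adjusted p = 0.106), and the call was lost in 12 of the 19 fits that left out 1 library and without both (-0.24, adjusted p = 0.251). In MaAAD the change of -0.48 ± 0.23 (adjusted p = 0.0999) did not pass, though it did with the replicate number as a block (adjusted p = 0.0394).

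Igfbp6, which binds Igf2 with preference over Igf1, fell in both treated female groups. Its level in FeCon was 38.4 CPM at the lowest, 73.9 at the median and 181 at the highest (FeCon3). In FeNonAD the values were 32.5, 44.8 and 74.4, and in FeAAD 8.94, 33.7 and 68.2. In FeAAD 6 of 9 libraries lay below all FeCon libraries, and in FeNonAD 1 of 8 did. It fell by 1.18 on the log2 scale ± 0.28 (adjusted p = 0.000569) in FeAAD and by 0.81 ± 0.29 (adjusted p = 0.0491) in FeNonAD. The FeNonAD call was lost in 14 of 18 fits without 1 library, and without FeCon3 the fold change was -0.61 (adjusted p = 0.128). In MaAAD the change was -0.50 ± 0.30 (adjusted p = 0.187).

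Sex differences in response were tested as the male minus the female change. None of the 9 genes passed by edgeR for the NonAD response, where 0.416% of all genes passed, nor for the AAD response, where 1.34% passed, nor for the step from NonAD to AAD, where 0% passed. At an unadjusted p under 0.05, 1, 3 and 0 of the 9 passed, against 12.1%, 15.4% and 1.04% of all genes, and by DESeq2 0, 1 and 0 did, against 1.25%, 2.78% and 0.00537%. Igf1r came nearest for the AAD response, at 0.63 ± 0.19 (adjusted p = 0.0717), and it passed by DESeq2 (adjusted p = 0.0351), without FeAAD5 and FeAAD9 together (adjusted p = 0.0454), and without FeCon2, FeCon3, FeCon7, MaCon3, MaCon9 or MaAAD1 in turn. For Igfbp2 the difference was -1.20 ± 0.46 (adjusted p = 0.171) and for Igfbp3 1.14 ± 0.44 (adjusted p = 0.177). Between MaAAD and FeAAD none of the 9 passed by edgeR, where 0.0901% of all genes passed, and between MaNonAD and FeNonAD none did, where 0.0624% passed. DESeq2 also called 0 in both, against 0.0698% and 0.0537% of all genes. At an unadjusted p under 0.05, 1 of the 9 (Igfbp6, 0.71 ± 0.30) passed between the AAD groups, against 2.22% of all genes, and 0 between the NonAD groups, against 6.47%. Between the controls, 2 of the 9 differed, Igfbp2 higher and Igf1r lower in MaCon, against 14.3% of all genes (6.38% higher and 7.9% lower). With the stricter rule 1 of the 9 did, against 1.51%. For Igf2 (-0.48, adjusted p = 0.0902) and Igfbp3 (-0.73, adjusted p = 0.085) the control difference passed with only the 2 groups in the fit (adjusted p = 0.00712 and 0.0134). Between FeAAD and FeNonAD 3 of the 9 changed, against 18.2% (13.2% rose and 5% fell), and 1 did under the stricter rule, against 7.04%. With only these groups in the fit 1 of the 9 passed, against 9.21% of all genes, and without FeAAD5 and FeAAD9 2 did, against 7.8%. Between MaAAD and MaNonAD none did by edgeR, against 0.409%. At an unadjusted p under 0.05, Igf1 and Igfbp3 passed in that male comparison, against 18.7% of all genes, and DESeq2 called Igf1, against 5.12%.

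The makeup of the binding proteins was taken as each gene's share of the summed level per length of the 6 binding protein genes. Igfbp7 held 84.9% ± 2.46 (SD, n = 10) of it in FeCon and 79.6% ± 6.52 (n = 9) in FeAAD, and 83.2% ± 3.10 (n = 10) in MaCon and 76.8% ± 4.45 (n = 7) in MaAAD. Igfbp2 held 0.865% ± 0.272 in FeCon, 2.93% ± 1.11 (n = 8) in FeNonAD and 8.14% ± 4.81 in FeAAD. In males it held 1.70% ± 0.416 in MaCon, 4.29% ± 1.89 (n = 4) in MaNonAD and 7.91% ± 4.10 in MaAAD. With coding length in place of transcript length Igfbp7 held 59.9% ± 4.88 in FeCon and 58.2% ± 9.68 in FeAAD, with Igfbp4 at 19.3% and Igfbp5 at 17.3% in FeCon in place of 7.03% and 4.30%. Igfbp2 then held 0.683% ± 0.226 in FeCon and 6.56% ± 3.79 in FeAAD. These shares were not tested.

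**Figure D4:**
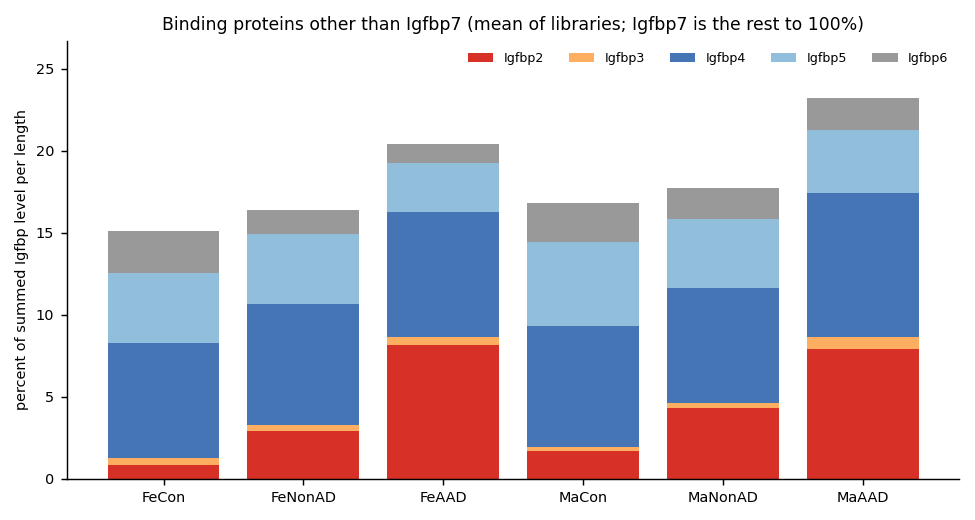
Stacked bars of the mean share, in percent of the summed level per kb of the longest transcript, of 5 binding proteins in each group. Igfbp7 is the rest to 100% and is not drawn. The Igfbp2 segment grows from 0.865% in FeCon to 8.14% in FeAAD and from 1.70% in MaCon to 7.91% in MaAAD.

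Genes that moved most like each member were ranked by Pearson r over the 48 libraries on log2 CPM after the mean of each group was subtracted, as a description with no test. Libraries share depth and tissue makeup, so r says nothing of shared control. Igfbp7 had the highest r, 0.93 with Ecm1, and Igfbp4 followed at 0.90 with Pcolce. Igf1r was most like Gatad2b (0.86), Igf1 most like Epyc (0.85), Igfbp5 most like Abca8b (0.85) and Igf2 most like Itgb4 (0.84). Igfbp6 was most like Adm (0.79). The nearest gene of Igfbp2 was C1qtnf5, at r = 0.65. For Igfbp3 the nearest were Gm10591 and Gm13304 (0.72), near-identical copies that had the same values. Among pairs of the 9 genes, r was highest for Igf2 and Igfbp5 (0.74) and lowest for Igf1 and Igf1r (-0.44). FeAAD5 and FeAAD9 were the lowest FeAAD libraries for both Igf2 (4.61 and 4.11 CPM) and Igfbp5 (189 and 135). Their part in that r was not tested.

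Of 66 other genes of the pathway, 64 were in the table and 59 were tested. H19 and Meg3 were not among the rows used here, and Igfbp1 was at 0 in every library. Between FeAAD and FeCon 12 of the 59 rose and 21 fell, where 23.8% of all genes rose and 20.6% fell. Without FeAAD5 and FeAAD9, 12 rose and 15 fell, where 37.5% of all genes passed (44.4% with all libraries). Between MaAAD and MaCon 15 rose and 14 fell, where 18.9% of all genes rose and 16.1% fell. The median log2 fold change of the list was -0.06 in FeAAD and -0.04 in MaAAD, against 0.00 and -0.03 over all genes. In FeNonAD 4 rose and 4 fell (6.87% and 7.66% of all genes). In MaNonAD, where 0.624% of all genes passed, none passed by edgeR, 9 did at an unadjusted p under 0.05 (12% of all genes), and the counts by DESeq2 and limma-voom were 1 and 0 (1.1% and 0.36% of all genes). Between MaCon and FeCon 2 were higher and 11 lower in MaCon (6.38% and 7.9% of all genes).

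Among the proteases that act on binding proteins, Adam12 rose by 2.75 ± 0.38 (adjusted p = 1.17e-07) in FeAAD and 2.34 ± 0.39 (adjusted p = 4.73e-06) in MaAAD. Pappa, which cleaves Igfbp4, rose by 0.92 ± 0.31 (adjusted p = 0.0126) in FeAAD, a call lost without FeAAD5 (0.68), and by 1.40 ± 0.33 (adjusted p = 0.000733) in MaAAD. Pappa2 rose by 1.35 ± 0.30 in MaAAD, and its FeAAD rise of 0.70 ± 0.28 was lost in 11 of 19 fits without 1 library. Stc2, an inhibitor of Pappa, fell by 1.28 ± 0.28 in FeAAD and by 1.17 ± 0.30 in MaAAD. Stc1 and Htra1 did not pass in either. The serine protease Htra4 was lower by 0.54 ± 0.23 (adjusted p = 0.0472) in FeAAD, a call lost in 10 of 19 fits without 1 library and in 4 other settings, and rose by 1.31 ± 0.24 (adjusted p = 2.53e-05) in MaAAD, from 8.24 ± 3.33 CPM (n = 10) in MaCon.

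Among CCN proteins, which carry an IGF-binding module, Ccn4 rose by 2.64 ± 0.29 in FeAAD, 2.81 ± 0.30 in MaAAD and 1.03 ± 0.29 in FeNonAD, where the call was lost without FeNonAD8 (0.69) and with limma-voom. Ccn3 fell by 0.65, 1.16 and 0.66 in FeNonAD, FeAAD and MaAAD. Of the receptors, Igf2r, which clears Igf2, rose by 0.46 ± 0.12 in FeNonAD, 0.73 ± 0.11 in FeAAD and 0.46 ± 0.12 in MaAAD. Insr, the insulin receptor, fell by 0.58 ± 0.12 in FeAAD, and its change in MaAAD was -0.25 ± 0.13 (adjusted p = 0.144). The imprinted gene Mest rose by 1.51 ± 0.30 in FeAAD, or 0.99 without FeAAD6, and by 1.37 ± 0.31 in MaAAD. Igf2bp3, which binds Igf2 mRNA, rose by 1.10 ± 0.36 and 1.13 ± 0.41, calls lost without FeAAD5 (0.77) in females and without MaAAD1 or MaAAD7 (0.99 and 0.89) in males. Igf2bp3 averaged under 1 CPM in all groups.

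Of the 6 genes of the growth hormone axis, 4 were lower in MaCon than in FeCon, as were 7.9% of all genes. Socs2, which dampens growth hormone signalling, was at 30.4 to 153 CPM in FeCon, and fell by 1.02 ± 0.23 in FeNonAD and by 1.08 ± 0.22 in FeAAD. Ghr, the growth hormone receptor, rose by 0.51 ± 0.17 in FeAAD, a call lost without FeAAD6 (0.36). Of the 19 genes of the PI3K, AKT, mTOR and FoxO list, 10 fell and 1 rose in FeAAD, where 20.6% of all genes fell and 23.8% rose. In MaAAD 7 fell and 1 rose, where 16.1% of all genes fell and 18.9% rose. Pik3r1, a regulatory subunit of PI3K, was the riser in both, by 0.69 ± 0.13 and 0.52 ± 0.14, and Pik3cb, a catalytic subunit, fell by 0.82 ± 0.16 in FeAAD. Of the receptor adaptors, Irs1 and Irs2 fell by 0.43 ± 0.16 and 0.68 ± 0.24 in FeAAD, calls lost with only the groups compared in the fit. The Irs1 call was also lost in 7 of 19 fits without 1 library. Without FeAAD5 and FeAAD9 both calls were lost, at -0.25 for Irs1 (adjusted p = 0.222) and -0.47 for Irs2 (adjusted p = 0.117). Without FeCon9 the Irs2 change was -0.39 (adjusted p = 0.138). Grb10, an inhibitor of the receptor, rose by 0.53 ± 0.10 in FeAAD and 0.38 ± 0.11 in MaAAD, and Grb14, a related adaptor, fell by 0.42 ± 0.10 and 0.78 ± 0.11.

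**Figure D5:**
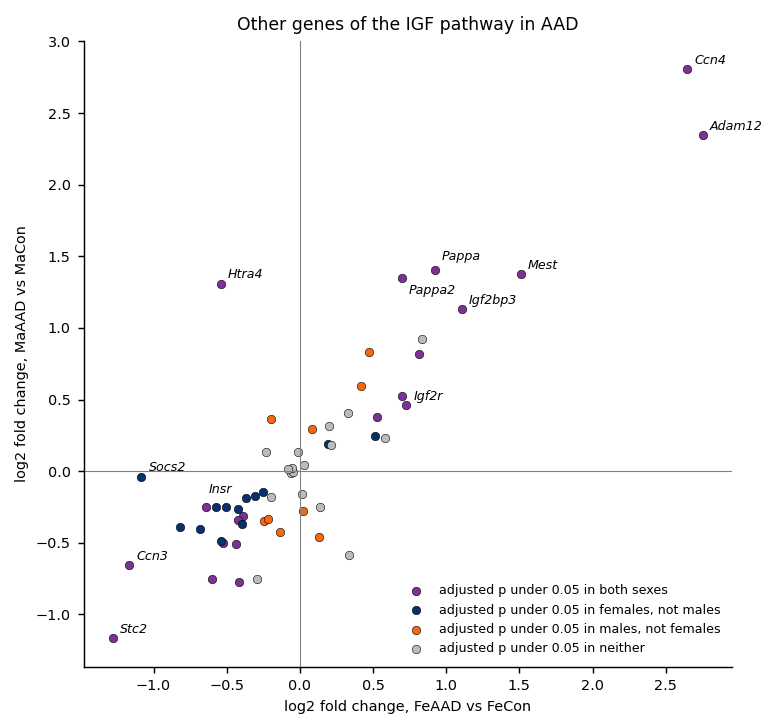
Log2 fold changes of the 59 other pathway genes in FeAAD against FeCon (x) and MaAAD against MaCon (y), coloured by which comparison passed at an adjusted p under 0.05. Ccn4 and Adam12 lie at the top right, Stc2 and Ccn3 at the bottom left, and Htra4 lies at -0.54 in females and 1.31 in males.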

How the data were processed

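RNA-seq of the thoracic aorta was analysed from 48 mice. Per the study's methods, strand-specific mRNA libraries were sequenced on a DNA NanoBall platform. The authors deposited expected counts per gene, and the submitters' processing notes name Bowtie2, RSEM 1.3.1 and mouse build GRCm39, while filters were not given in the sources used here. Of the values 4.99% were not whole, none of them in the 9 genes, and all were rounded. Reads carry no molecular identifiers.

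Genes were filtered by filterByExpr, scaled by TMM (factors 0.874 to 1.08) and tested in edgeR 4.0.16 (R 4.3.3) with a mean per group over the 48 libraries by the robust quasi-likelihood test, with Benjamini-Hochberg adjustment. SEs are approximate, from the F statistic. The test was checked on simulated data. Alternatives were DESeq2 1.42.0, its size factors, limma-voom 3.58.1, no filter, no robust estimation, a replicate block, fits of the compared groups, the study's fold rule, and each library left out in turn. Those leaving out libraries that no earlier result had singled out, or FeAAD5 and FeAAD9 together, and binding protein shares by coding length, were chosen after seeing the data.

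The 9 genes, the pathway and marker lists and the rule for named genes were chosen with earlier results of these data known. The rule named all 9 genes, 15 pathway genes always, and, for each treated group against Con of its sex, the 4 largest changes up and the 4 largest down that passed. The design spoke of whole counts. Mice are separate, so p-values measure the spread between them. Mice of a group shared cages, which are not given per library, and the tests took each mouse as independent. Lengths are from GENCODE M21 (GRCm38).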

Additional observations from a re-analysis of the deposited data

Results flagged for a closer look

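In 54 groups of values of the 9 genes (log2 CPM), 2 had a library far from the others by Dixon's ratio, and chance gives about 1 group in 20. Igfbp4 in FeNonAD8 stood at 1407 CPM against 911 in the next library (ratio 0.528), and Igfbp4 in FeAAD9 stood at 305 CPM against 704 (ratio 0.531).

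Of 59 pathway genes, the change of 1 differed between the sexes for the NonAD response and of 2 for the AAD response by the test of the difference itself, where 0.416% and 1.34% of all genes did. For Htra4 the male minus female difference was 1.59 on the log2 scale for the NonAD response (adjusted p = 0.03), lost in 5 of 32 fits without 1 library and with the replicate block, and 1.85 for the AAD response (adjusted p = 0.00241), kept in all 36 fits without 1 library and in the 7 other settings. For Ndn the difference of the AAD response was -0.592 (adjusted p = 0.038), lost in 20 of 36 fits without 1 library, without the filter and with only the groups compared in the fit.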

How the results depend on the processing

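None of the 18 passing results of the 9 genes changed sign under any setting, while 24 of the 90 that did not pass did so under some setting. Of those 18, 8 kept their call under the study's fold rule. Under the 7 other settings and with each library left out, 13 kept it throughout and 5 were lost in some fit, and 8 of the 90 passed in some. The number of genes that passed moved by over 1.5 times in these cases. With the study's fold rule it was 1 in FeNonAD (2.75% of all genes) and 2 in FeAAD (12.7%) against FeCon. It was 1 between FeAAD and FeNonAD (7.04%) and 1 between MaCon and FeCon (1.51%) under that rule. With DESeq2 it was 1 between MaAAD and MaNonAD (5.12% of all genes) and 1 for the AAD response (2.78%). With only the compared groups in the fit it was 1 between MaNonAD and MaCon, against 1.99% of all genes. It was 1 between FeAAD and FeNonAD (9.21%) and 4 between MaCon and FeCon (14.1%) in such fits. With 1 library left out it ranged from 0 to 1 for MaNonAD against MaCon, MaAAD against MaNonAD and the AAD response. The shares of all genes then ran from 0.11% to 0.908%, from 0% to 9.31% and from 0.749% to 3.35%. Without FeAAD5 and FeAAD9 together the number was 1 for the AAD response, against 3.36% of all genes. With coding length, 3 genes kept their place in the order of levels. The number of all genes called also moved by over 1.5 times. With 1 library left out it ranged from 16 (without MaNonAD1) to 131 for MaNonAD against MaCon (90 with all libraries), from 0 (without MaNonAD2, for example) to 1342 (without MaAAD1) for MaAAD against MaNonAD (59), from 17 (without MaNonAD1) to 254 (without FeCon2) for the NonAD response (60), from 108 (without FeCon10) to 483 (without FeCon2) for the AAD response (194), and from 1492 (without FeAAD5) to 3209 for FeAAD against FeNonAD (2625). With only the compared groups in the fit these were 274, 0, 88, 95 and 1257, and with DESeq2 165, 769, 183, 417 and 2891. The causes were not tested.

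With the replicate number as a block, Igfbp6 in FeNonAD did not pass (-0.87, adjusted p = 0.0636) and Igfbp5 in MaAAD did (-0.61, adjusted p = 0.0394), with no other change of a call among the 9 genes. Libraries of one number in FeNonAD and FeCon correlated between -0.259 and 0.323 in their deviations, so they share only a number. Igfbp6 in FeNonAD was also lost with limma-voom (adjusted p = 0.085) and no filter (0.0678). Counts of 68 or more per library limit no value of the 9 genes.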
